A study of Mus musculus with 20 samples.

Results

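The STAT transcription factors are described here through 6 genes, Stat2, Stat3, Stat4, Stat5a, Stat5b and Stat6, which were matched from symbol to Ensembl identifier among the 49315 gene identifiers in the count tables. In eosinophils of lung grafts taken at day 7 without costimulatory blockade, Stat2 was 3.88-fold, Stat4 1.91-fold, Stat3 1.84-fold and Stat5a 1.51-fold of its level in resting lung eosinophils. Stat5b was lower, at 0.810-fold, and Stat6 did not pass the test. Measured per length of transcript, Stat6 and Stat3 together made up most of the STAT RNA in both groups, and the share of Stat6 was smaller in the grafts.

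STAT proteins are latent cytoplasmic factors that are phosphorylated by Janus kinases when a cytokine binds its receptor, pair up, and move to the nucleus to switch on target genes. STAT2 works with IRF9 in the complex that answers type I and type III interferons, STAT3 answers IL-6, IL-10 and IL-21 among others, STAT4 answers IL-12, STAT5A and STAT5B answer IL-2, IL-3, IL-5 and GM-CSF, and STAT6 answers IL-4 and IL-13. Eosinophils depend on the IL-5 and GM-CSF receptors for growth and survival, and they are recruited in IL-4 and IL-13 driven inflammation.

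RNA was sequenced from eosinophils that had been sorted from lung by flow cytometry, and each library pooled the lungs of 3 to 5 mice. The first group came from Balb/c lungs grafted into C57BL/6 recipients and taken at day 7 with no costimulatory blockade (CSB, a treatment that blocks the accessory signals T cells need), and the second from the resting lungs of untreated C57BL/6 mice, with 5 libraries in each group. The titles give the absence of CSB, while the protocol text shared by all samples speaks of transplantation under CSB without separating this group. Per the labels, eosinophils that enter the graft belong to the recipient, no age is given, and 10 of the 20 labelled samples, those with CSB at day 7 and later, were not analysed here. The labels do not say whether the pools were independent, so p-values measure the spread between these libraries, which may be technical.

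The day 7 libraries held 15695074 to 26683784 counts and the resting libraries 6666577 to 12883144, and the groups came in separate tables, so depth, batch and group cannot be told apart. Of 16500 genes tested, 46.7% were called either way, 23.3% higher and 23.4% lower at day 7 (edgeR quasi-likelihood test, Benjamini-Hochberg adjusted p below 0.05). Counts of called genes in each list below are to be read beside these shares. A share of 35.1% had no overlap between the 5 day 7 and the 5 resting libraries, and the median log2 fold change was 0.05. With library totals in place of TMM scaling, the split was 2495 higher and 4883 lower, and the log2 fold changes moved by a median of -0.19.

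The eosinophil label was checked against 12 markers. Siglecf, a surface lectin of eosinophils, ranged from 134 to 300.1 CPM (counts scaled to library size) at day 7 and from 105 to 199 CPM in resting lung. Ccr3, the eotaxin receptor, ranged from 171 to 811 CPM at day 7 and from 159 to 472 CPM in resting lung. Epx, the eosinophil peroxidase of the granules, ranged from 0.549 to 9.62 CPM at day 7 and from 22.5 to 171 CPM in resting lung. Surface markers of the label were therefore present in all 10 libraries, while Epx was low at day 7. Prg2, another marker of this list, was lower but not near 0, at 81.5 ± 52.7 CPM at day 7 and 463 ± 186 CPM in resting lung. Prg3, Ear1, Ear2 and Ear6 were lower as well. They averaged 4.18, 46.3, 66.9 and 23.9 CPM at day 7 and 29.3, 190, 262 and 82.5 CPM in resting lung. The eosinophil markers summed to 1032 to 3409 CPM at day 7 and 2203 to 3742 CPM in resting lung, with 1 higher, 6 lower and 5 not called. Siglecf was the 1 called higher, and Epx, Prg2, Prg3, Ear1, Ear2 and Ear6 were the 6 lower.

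RNA of other cells was also measurable. Neutrophil markers summed to 4318 to 8107 CPM at day 7 and 9286 to 11814 CPM in resting lung, above the eosinophil sums in both groups (0 of 10 higher and 3 lower). Retnlg alone, a gene of this list, averaged 4288 CPM at day 7 and 5356 CPM in resting lung, TMM-scaled. S100a8 and S100a9, also of this list, averaged 1133 and 1115 CPM at day 7 and 1474 and 1535 CPM in resting lung. Sums over different lists depend on the genes listed and do not rank the amounts of RNA from different cell types. The amount of neutrophil RNA was not tested. Monocyte and interstitial macrophage markers summed to 4393 to 8143 CPM at day 7 and 2036 to 2811 CPM in resting lung (10 of 12 higher), and T cell markers to 386 to 1049 CPM at day 7 and 115 to 167 CPM in resting lung (12 of 12 higher). Natural killer cell markers summed to 211 to 511 CPM at day 7 and 84.2 to 130 CPM in resting lung (5 of 8 higher). Endothelial markers summed to 72.7 to 158 CPM at day 7 and 2556 to 3718 CPM in resting lung (10 of 10 lower), epithelial markers to 31.4 to 460 CPM at day 7 and 3416 to 6598 CPM in resting lung (8 of 9 lower), and red cell and platelet markers to 97.6 to 160 CPM at day 7 and 1490 to 2396 CPM in resting lung (9 of 9 lower). No tested marker gene of the 13 cell type lists was at 0 throughout the day 7 libraries. In such bulk libraries fewer cells of a type and less RNA per cell cannot be told apart, and the part of other cells in the STAT values was not tested.

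Of the 6 STAT genes, 4 were called higher, 1 lower and 1 not called, a share of calls to be read beside 46.7% of all genes. On TMM-scaled CPM, 5 of the 6 did not overlap between the groups, beside 35.1% of all genes. This depended on scaling for Stat4 and Stat5a, which overlapped as counts per exon length scaled to the same sum. On that scale Stat4 was 27.9 in day 7 replicate 2 and 29.5 in resting replicate 1. Stat5a was 11.4 and 11.9 in the same 2 libraries. The median log2 fold change of the 6 STAT genes was 0.735, beside 0.05 over all tested genes.

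**Figure D1:**
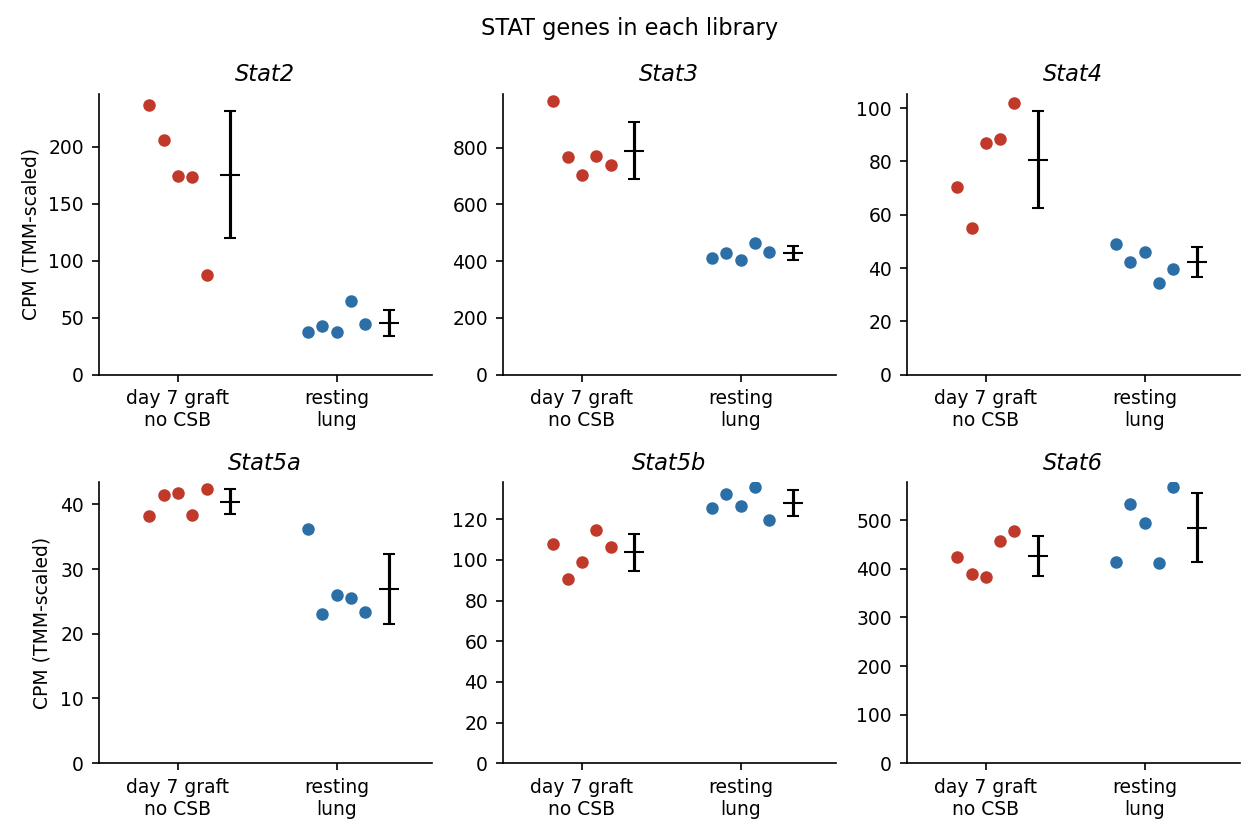
CPM of each STAT gene in each library, with TMM-scaled totals and a vertical axis that starts at 0. Each point is 1 library of 5 per group, and bars give the mean and SD. Only the Stat6 panel has overlapping groups, and Stat2 ranges from 87.8 to 236 CPM at day 7, against 37.1 to 64.2 CPM in resting lung.

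Stat2, the partner of IRF9 in the interferon-activated complex, is annotated on chromosome 10 from 128270559 to 128292849 on the plus strand (mm10, GENCODE M21, ENSMUSG00000040033). In the 5 day 7 libraries it measured 236, 206, 174, 173 and 87.8 CPM, and in the 5 resting libraries 37.1, 42.9, 37.5, 64.2 and 44.4 CPM. Every day 7 library lay above every resting one, with day 7 replicate 5 nearest to the resting values and resting replicate 4 highest within its group. The means were 175 ± 55.5 CPM at day 7 and 45.2 ± 11.1 CPM in resting lung (SD, n = 5 each). The log2 fold change was 1.96 ± 0.24 (SE, 95% interval 1.44 to 2.48, edgeR adjusted p = 2.07e-05). Relative spread was wide in both groups: the coefficient of variation was 31.7% at day 7, where 86.2% of 6705 genes with a mean of at least 20 CPM varied less, and 24.6% in resting lung, where 92.7% of 6897 such genes varied less.

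The 250 bases before the RefSeq start of Stat2 are shown because Stat2 had the largest change of the 6 genes and is itself known to be interferon-inducible. Capitals mark matches to the interferon-response core GAAANNGAAA, searched on both strands, and to the palindrome TTCNNNNGAA, a spacing that STAT6 is known to prefer. The window lies on the plus strand of GRCm38.p6 at chr10:128270248-128270497.
Stat2 promoter: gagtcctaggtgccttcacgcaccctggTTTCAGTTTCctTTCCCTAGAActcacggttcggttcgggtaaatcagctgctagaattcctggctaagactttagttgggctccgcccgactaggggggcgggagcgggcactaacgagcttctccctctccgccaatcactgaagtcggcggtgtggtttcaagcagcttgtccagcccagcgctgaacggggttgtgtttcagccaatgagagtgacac
Read 5′ to 3′, the first match is TTTCAGTTTC, the core on the minus strand, from -222 to -213 relative to the start, and the second is TTCCCTAGAA from -210 to -201. The 2 matches do not overlap. The core was found in 2.98% of 32851 RefSeq promoter windows of this length, and TTCNNNNGAA in 5.85%. Among 9 windows of the 6 STAT genes, 2 held the core, 1 held TTCNNNNGAA and 0 held TTCNNNGAA, the common STAT palindrome, which was present in 7.02% of all windows. A match describes these letters and does not show binding.

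Among genes with a mean of at least 20 CPM, the profile of Stat2 over the 10 libraries was most like that of Irf7, an interferon-induced interferon regulator, with a root-mean-square difference of 0.151 on the centred log2 scale over 6762 genes compared. Slfn1 and Rnf213, both known as interferon-induced genes, followed at 0.174 each. This measure includes the difference between the groups, so genes with a like fold change come out near, here and for the other members. Irf7, Slfn1 and Rnf213 had log2 fold changes of 1.80, 2.00 and 2.00, beside 1.96 for Stat2. Irf7 is also 1 of the listed targets that follow. The 22 listed targets of the STAT2 complex were all called higher, with a median log2 fold change of 1.93 and a range of 0.65 to 3.11. Over all tested genes, 23.3% were called higher. Because the lists were chosen with earlier results of these data known, this count is no independent test of STAT2 activity. Ifit2, an antiviral tetratricopeptide protein, averaged 176 ± 67.7 CPM at day 7 and 20.4 ± 1.89 CPM in resting lung (log2 fold change 3.11 ± 0.28, edgeR adjusted p = 1.37e-06). Oasl1, Mx1 and Rsad2, further antiviral effectors, had log2 fold changes of 3.00, 2.79 and 2.74.

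Summed over the list, these targets reached 4126, 3311, 3471, 3305 and 1869 CPM in day 7 replicates 1 to 5, and 853, 1121, 885, 1140.2 and 776 CPM in resting replicates 1 to 5. The library lowest in Stat2 at day 7, replicate 5, was also lowest in this sum. Day 7 replicate 5 had, in addition, the highest sum of T cell markers, 1049 CPM, against 386 to 704 CPM in the other 4 day 7 libraries.

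Irf9, which supplies the DNA contact of the STAT2 complex, averaged 188 ± 18.7 CPM at day 7 and 106 ± 8.51 CPM in resting lung (log2 fold change 0.82 ± 0.11, edgeR adjusted p = 2.87e-05). Of 4 receptor chains upstream of STAT2, 2 were higher, beside 23.3% of all tested genes. Ifnar2, a chain of the type I interferon receptor, had a log2 fold change of 0.62 ± 0.12, and Il10rb, shared by the IL-10 and type III interferon receptors, one of 0.71 ± 0.14. Ifnar1, the other chain of the type I interferon receptor, averaged 390.04 ± 31.8 CPM at day 7 and 306 ± 64.8 CPM in resting lung and was not called (log2 fold change 0.35, edgeR adjusted p = 0.0656). Without resting replicate 2 it was called, at 0.46.

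Stat3 is annotated on chromosome 11 from 100885098 to 100939540 on the minus strand (ENSMUSG00000004040). It measured 962, 766, 704, 771 and 738 CPM in the day 7 libraries and 412, 429.7, 404, 465 and 433 CPM in the resting libraries. The groups were far apart, with a single day 7 library, replicate 1, standing above its group. The means were 788 ± 101 CPM at day 7 and 429 ± 23.5 CPM in resting lung (log2 fold change 0.88 ± 0.12, 95% interval 0.63 to 1.13, edgeR adjusted p = 3.48e-05). In resting lung the coefficient of variation of Stat3 was 5.48%, and 7.26% of genes varied less.

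The profile nearest to Stat3 was that of Ogfrl1 (root-mean-square difference 0.0880), followed by Lsm8 (0.105), a subunit of the nuclear Lsm ring, and Slbp (0.116), the histone stem-loop binding protein. Of 15 listed STAT3 targets, 8 were higher, 2 lower and 5 not called, with a median log2 fold change of 0.55. These counts stand beside 23.3% higher and 23.4% lower over all tested genes. Il10, which encodes an anti-inflammatory cytokine, averaged 12.5 ± 6.56 CPM at day 7 and 1.22 ± 0.830 CPM in resting lung (log2 fold change 3.31). Nfil3, a bZIP regulator, and Il1rn, the IL-1 receptor antagonist, rose by 2.14 and 2.06 on the log2 scale. Cebpd, a C/EBP factor of acute-phase responses, fell by 3.15 on the log2 scale. Socs3, the classical feedback inhibitor downstream of STAT3, averaged 531 ± 278 CPM at day 7 and 451 ± 71.4 CPM in resting lung and was not called (log2 fold change 0.23, edgeR adjusted p = 0.569). Pim1, a survival kinase, was not called either, at 0.42, and it was called higher with no filter on low counts, at 0.53.

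Receptor chains upstream of STAT3 went both ways: 4 of the 11 tested were higher and 5 lower, with a median log2 fold change of -0.28. The shares over all tested genes were 23.3% higher and 23.4% lower. Il21r, the IL-21 receptor, averaged 172 ± 24.8 CPM at day 7 and 31.5 ± 3.45 CPM in resting lung (log2 fold change 2.45 ± 0.13, edgeR adjusted p = 7.69e-09). Il6st, the shared gp130 chain of the IL-6 family, averaged 62.8 ± 18.5 CPM at day 7 and 217 ± 23.1 CPM in resting lung (log2 fold change -1.79). Lepr, the leptin receptor, and Osmr, the oncostatin M receptor, had log2 fold changes of -4.06 and -3.26. These falls stood beside the lower sums of endothelial and epithelial markers at day 7, and the part of those cells in them was not tested. Csf3r, the G-CSF receptor, had a log2 fold change of -0.28 and Il6ra, the IL-6 receptor, one of -0.09, and neither was called.

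Stat4 is annotated on chromosome 1 from 51987148 to 52107189 on the plus strand (ENSMUSG00000062939). It measured 70.3, 55.1, 86.9, 88.6 and 102 CPM in the day 7 libraries and 48.9, 42.2, 46.1, 34.3 and 39.6 CPM in the resting libraries. The lowest day 7 library, replicate 2, stood just above the highest resting one. The means were 80.6 ± 18.2 CPM at day 7 and 42.2 ± 5.65 CPM in resting lung (log2 fold change 0.93 ± 0.16, 95% interval 0.59 to 1.28, edgeR adjusted p = 0.000308).

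T cells are a known site of STAT4, and their 12 markers summed to 636, 386, 704, 607 and 1049 CPM in day 7 replicates 1 to 5, against 167, 115, 161, 159.6 and 119 CPM in the resting libraries. Replicate 2 was lowest and replicate 5 highest at day 7 in both Stat4 and this sum. Their part in the change of Stat4 was not tested. A second RefSeq start of Stat4, inside an intron of the GENCODE gene, has the interferon-response core in the 250 bases before it, at chr1:52007990-52008239 on the plus strand, and it is shown as the other of the 2 windows with the core.
Stat4 second promoter: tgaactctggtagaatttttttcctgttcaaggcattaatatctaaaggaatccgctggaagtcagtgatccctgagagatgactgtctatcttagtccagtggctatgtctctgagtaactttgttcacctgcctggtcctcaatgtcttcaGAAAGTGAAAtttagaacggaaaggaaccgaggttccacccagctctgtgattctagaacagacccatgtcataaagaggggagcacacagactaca
The capitals mark GAAAGTGAAA, from -97 to -88 relative to that start. Exons of the gene Gm28177 share 1033 bases with Stat4 on the same strand, and how reads in such stretches were counted is not stated in the labels. Gm28177 itself held 320 counts over the 5 day 7 libraries and 35 over the 5 resting libraries.

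The nearest profiles to Stat4 were those of Ptpn22, a lymphoid tyrosine phosphatase (root-mean-square difference 0.147), Pde4d, a cyclic AMP phosphodiesterase (0.170), and Dsn1, a kinetochore subunit (0.184). Of 11 listed STAT4 targets, 7 were higher, 1 lower and 3 not called, with a median log2 fold change of 1.55. Among all tested genes, 23.3% were called higher and 23.4% lower. Ifng, the interferon-gamma gene, measured 14.8, 5.99, 24.8, 17.1 and 74.8 CPM at day 7, and between 0 and 1.48 CPM in the resting libraries (log2 fold change 5.26 ± 0.75, edgeR adjusted p = 8.45e-05). Without day 7 replicate 5, its log2 fold change was 4.46. Tbx21, the T-bet factor of T and natural killer cells, averaged 24.3 ± 4.52 CPM at day 7 and 6.53 ± 1.37 CPM in resting lung (log2 fold change 1.90). Il12rb1, the shared chain of the IL-12 and IL-23 receptors, averaged 17.9 ± 6.27 CPM at day 7 and 1.13 ± 0.340 CPM in resting lung (log2 fold change 4.02 ± 0.30, edgeR adjusted p = 1.46e-07). Il12rb2, the chain to which STAT4 docks, averaged 38.6 ± 5.85 CPM at day 7 and 42.9 ± 11.7 CPM in resting lung and was not called (log2 fold change -0.16, edgeR adjusted p = 0.517).

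Stat5a and Stat5b are close paralogs that lie head to head on chromosome 11, with 8626 bases between them. Stat5a runs from 100859351 to 100885169 on the plus strand (ENSMUSG00000004043) and Stat5b from 100780731 to 100850724 on the minus strand (ENSMUSG00000020919). Stat5a measured 38.2, 41.4, 41.7, 38.4 and 42.4 CPM in the day 7 libraries and 36.2, 23.1, 26.0, 25.6 and 23.4 CPM in the resting libraries. The day 7 values lay close together, and resting replicate 1 stood above the other 4 resting libraries. The means were 40.4 ± 1.96 CPM at day 7 and 26.9 ± 5.40 CPM in resting lung (log2 fold change 0.59 ± 0.13, 95% interval 0.31 to 0.87, edgeR adjusted p = 0.00210).

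Stat5b measured 108, 90.6, 99.2, 115 and 107 CPM in the day 7 libraries and 126, 132, 127, 136 and 119.7 CPM in the resting libraries. All day 7 libraries lay below all resting libraries. The means were 104 ± 9.19 CPM at day 7 and 128 ± 6.31 CPM in resting lung (log2 fold change -0.30 ± 0.10, 95% interval -0.51 to -0.10, edgeR adjusted p = 0.0193). The call of Stat5b was lost in 6 of 18 other settings. Among these, its log2 fold change was -0.25 without day 7 replicate 2, -0.28 without day 7 replicate 3, -0.29 without resting replicate 2 and -0.26 without resting replicate 4, with edgeR adjusted p-values of 0.0601, 0.0564, 0.0534 and 0.0575 in that order.

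Within a library, the log2 ratio of Stat5a to Stat5b counts was higher at day 7 by 0.92 (95% permutation interval 0.55 to 1.24), with no overlap between groups (exact two-sided permutation test, adjusted p = 0.0170 over 15 pairs). The 2 annotated genes share 387 of their 75-base exonic words, 5.12% of those of Stat5a and 6.99% of those of Stat5b, and no other pair of the 6 genes shares any. Stat3 and Stat5a overlap by 72 exonic bases at their 3′ ends on opposite strands. Stat3 had 73097 counts over the day 7 libraries and 21396 over the resting libraries, while Stat5a had 3814 over the day 7 libraries and 1331 over the resting libraries. Without a stated strand setting, reads in the overlap cannot be assigned.

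The profile nearest to Stat5a was that of Nvl, a ribosome biogenesis ATPase (root-mean-square difference 0.128), followed by Ngdn and Ndufab1 at 0.131 each. The profile nearest to Stat5b was that of Desi1 (0.0785), followed by Slc25a24 and Tmem167b at 0.0871 each. Of 14 listed STAT5 targets, 6 were higher, 1 lower and 7 not called, with a median log2 fold change of 0.50. Over all tested genes, 46.7% were called, 23.3% higher and 23.4% lower. Socs1, a feedback inhibitor that binds Janus kinases, measured between 101 and 163 CPM at day 7 and between 7.04 and 12.3 CPM in resting lung (log2 fold change 3.83 ± 0.19, edgeR adjusted p = 5.72e-09). It also stands in the STAT6 list and among the negative regulators, as several listed genes do. Il2ra, the alpha chain of the IL-2 receptor, averaged 25.7 ± 9.50 CPM at day 7 and 2.06 ± 0.747 CPM in resting lung (log2 fold change 3.67). Lif, a cytokine of the IL-6 family, rose by 1.37 and Ccnd1, cyclin D1, fell by 1.26 on the log2 scale. Cish, the classical feedback target of STAT5, averaged 324 ± 84.6 CPM at day 7 and 305 ± 58.0 CPM in resting lung and was not called (log2 fold change 0.09, edgeR adjusted p = 0.735).

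Receptor chains upstream of STAT5 were higher in 8 of 13 tested genes and lower in 2, with a median log2 fold change of 0.58. The shares over all tested genes were 23.3% higher and 23.4% lower. Il2rb, the beta chain for IL-2 and IL-15, averaged 180.03 ± 35.6 CPM at day 7 and 39.5 ± 6.48 CPM in resting lung (log2 fold change 2.19). Il5ra, which makes the IL-5 receptor of eosinophils specific, averaged 45.7 ± 24.5 CPM at day 7 and 52.9 ± 19.3 CPM in resting lung and was not called (log2 fold change -0.21, edgeR adjusted p = 0.673). Ghr, the growth hormone receptor, averaged 1.97 ± 0.887 CPM at day 7 and 61.4 ± 9.02 CPM in resting lung (log2 fold change -4.95). Endothelial and epithelial marker sums were lower at day 7 as well, and their part in this fall was not tested.

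Stat6 is annotated on chromosome 10 from 127642986 to 127660957 on the plus strand (ENSMUSG00000002147). It measured 425, 389, 383, 456 and 478 CPM in the day 7 libraries and 414, 533, 495, 412 and 569.6 CPM in the resting libraries. The ranges overlapped, with 2 resting libraries inside the day 7 range. The means were 426 ± 41.1 CPM at day 7 and 485 ± 70.6 CPM in resting lung (log2 fold change -0.18 ± 0.13, 95% interval -0.46 to 0.09, edgeR adjusted p = 0.257). The interval does not extend to a rise of the size seen in Stat3, Stat4 or Stat5a. With library totals in place of TMM scaling, Stat6 was called lower, at -0.37.

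The nearest profiles to Stat6 were those of Arpc1a, an actin-nucleating Arp2/3 subunit (root-mean-square difference 0.0636), Baz2a (0.0688) and Prr14 (0.0713). Of 18 listed STAT6 targets, 7 were higher, 5 lower and 6 not called, beside 23.3% higher and 23.4% lower over all tested genes. Their median of 0.04 stood beside 0.05 over all tested genes on the log2 scale. Arg1, arginase 1, averaged 278 ± 175 CPM at day 7 and 2.28 ± 1.07 CPM in resting lung (log2 fold change 6.95). Retnla, a resistin-like protein of type 2 inflammation, measured 264, 736, 1235, 806 and 4345 CPM in the day 7 libraries, and between 28.1 and 52.8 CPM in resting lung. Day 7 replicate 5 stood far above the rest, and the log2 fold change of Retnla was 5.31 over all libraries and 4.36 when that library was left out. Ccl11, the eotaxin gene, was lower with a log2 fold change of -2.56, at 0.359 ± 0.440 CPM at day 7 and 2.01 ± 1.36 CPM in resting lung. Alox15, a lipoxygenase of eosinophils, was not called, at 0.18.

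Of 3 receptor chains upstream of STAT6, Il2rg, the common gamma chain, was higher (log2 fold change 1.16 ± 0.12, edgeR adjusted p = 2.79e-06). Il4ra, the IL-4 receptor alpha chain, averaged 411 ± 142 CPM at day 7 and 298 ± 23.1 CPM in resting lung and was not called (log2 fold change 0.46, edgeR adjusted p = 0.0805). Without day 7 replicate 5, it was called, at 0.62. Il13ra1 was not called at 0.68, and was called without day 7 replicate 4 at 0.81 and without day 7 replicate 5 at 0.88.

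**Figure D2:**
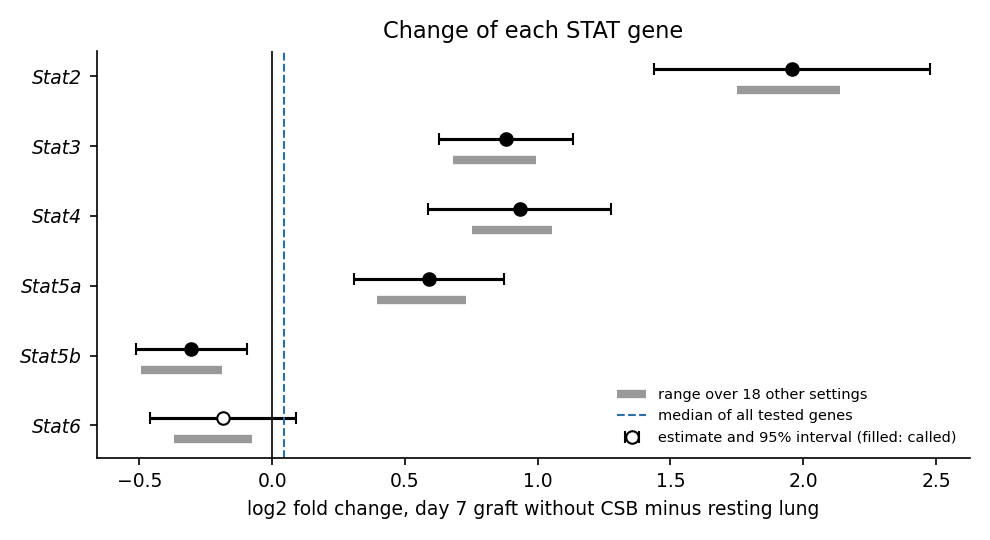
Log2 fold change of each STAT gene, day 7 graft without CSB minus resting lung, with its 95% interval. Grey bars give the range over 18 other settings, which change the scaling, filter or model or, in 10 of them, leave out 1 library. The dashed line is the median of all tested genes at 0.05. Stat2 lies at 1.96, Stat3, Stat4 and Stat5a between 0.59 and 0.93, and Stat5b and Stat6 below 0.

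To ask whether the 6 genes changed by different amounts, the log2 ratio of their counts within each library was compared, which does not depend on scaling. Of 15 pairs, 10 passed an adjusted p of 0.05 (exact two-sided permutation test, 5 against 5 libraries, smallest possible p 0.00794) and 7 did not overlap between the groups. How many pairs of other genes would do so was not tested, while 46.7% of single genes were called. The counts are therefore not shown to be particular to the STAT genes. Stat3 had more counts than Stat6 in all 5 day 7 libraries, with a log2 ratio of 0.63 to 1.18, and about as many in resting lung, with -0.40 to 0.17. That ratio was higher by 1.05 at day 7 (interval 0.71 to 1.38, exact permutation adjusted p = 0.0170). Stat2 gained on Stat5b by 2.22 (interval 1.49 to 2.85) and on Stat6 by 2.09 (interval 1.24 to 2.78), each with an exact permutation adjusted p of 0.0170.

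Stat2 gained on Stat3 by 1.04 and on Stat5a by 1.30, each with an exact permutation adjusted p of 0.0238. Stat3 gained on Stat5b by 1.18, Stat4 gained on Stat5b by 1.22 and on Stat6 by 1.09 (exact permutation adjusted p = 0.0170 each), and Stat5a gained on Stat6 by 0.79 (exact permutation adjusted p = 0.0238). For Stat3 over Stat4 the difference was -0.04, and its interval ran from -0.61 to 0.57. For Stat5b over Stat6 it was -0.13, with an interval of -0.41 to 0.14. The pairs Stat3 over Stat5a (0.26, interval -0.10 to 0.69) and Stat4 over Stat5a (0.30, interval -0.14 to 0.73) did not pass, and neither did Stat2 over Stat4 (1.00, interval -0.09 to 2.01, exact permutation adjusted p = 0.0866). Stat2 over Stat4 passed without day 7 replicate 5, at 1.33 (exact permutation adjusted p = 0.0238), and Stat4 over Stat5a passed without day 7 replicate 2, at 0.44 (exact permutation adjusted p = 0.0298). These intervals do not show that the genes of a pair moved alike.

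**Figure D3:**
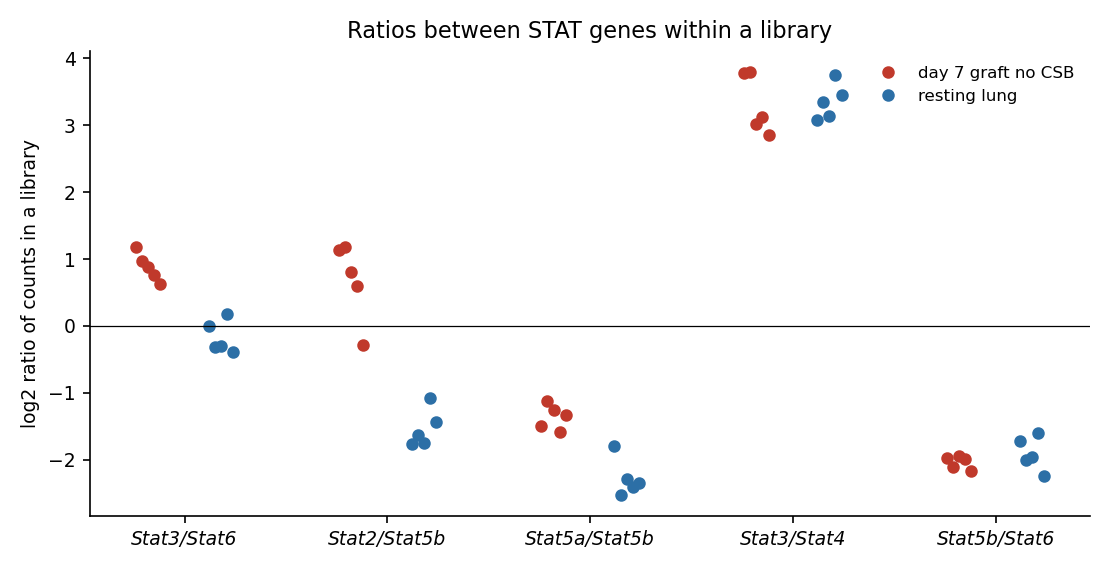
Log2 ratio of the counts of 2 STAT genes within a library, for 5 of the 15 pairs. Each point is 1 library, with day 7 grafts left of resting lung in each pair. The groups separate for Stat3/Stat6, Stat2/Stat5b and Stat5a/Stat5b and overlap for Stat3/Stat4 and Stat5b/Stat6.

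For levels between genes, counts were divided by the exon length of each gene and scaled to the same sum in every library, on the TPM scale. Per length, Stat6 reached 207 ± 23.4 TPM at day 7 and 245 ± 35.4 in resting lung, which placed it above 96.5% of tested genes at day 7 and 97.5% in resting lung. Stat3 reached 177 ± 26.6 at day 7 and 100.3 ± 5.91 in resting lung. Stat2 reached 63.2 ± 20.5 at day 7 and 17.0 ± 4.02 in resting lung. Its place among the 6 differed between the groups, above Stat4 and Stat5b in the day 7 means and below both in the resting means.

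Stat4 reached a level per length of 44.6 ± 10.8 at day 7 and 24.3 ± 3.66 in resting lung, and Stat5b 40.0 ± 5.06 at day 7 and 51.5 ± 2.15 in resting lung. Stat5a was lowest in both groups, at 12.1 ± 0.576 TPM at day 7 and 8.43 ± 1.96 in resting lung. Neighbours in this order overlapped between libraries at day 7 for Stat6 with Stat3, Stat2 with Stat4 and Stat4 with Stat5b, and in resting lung for Stat4 with Stat2. The summed level of the 6 genes was 543 ± 56.4 TPM at day 7 and 447 ± 31.3 in resting lung (SD, n = 5 each).

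Stat6 held 38.1% ± 3.25 of that sum at day 7 and 54.7% ± 4.34 in resting lung, Stat3 held 32.5% ± 2.29 at day 7 and 22.5% ± 2.03 in resting lung, and Stat2 held 11.6% ± 3.50 at day 7 and 3.83% ± 1.05 in resting lung (SD, n = 5 each). The length chosen decides the order at the top: with the longest transcript in place of all exons, Stat3 averaged 229 and Stat6 198 TPM at day 7, while in resting lung Stat3 averaged 133 and Stat6 239.9 TPM.

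**Figure D4:**
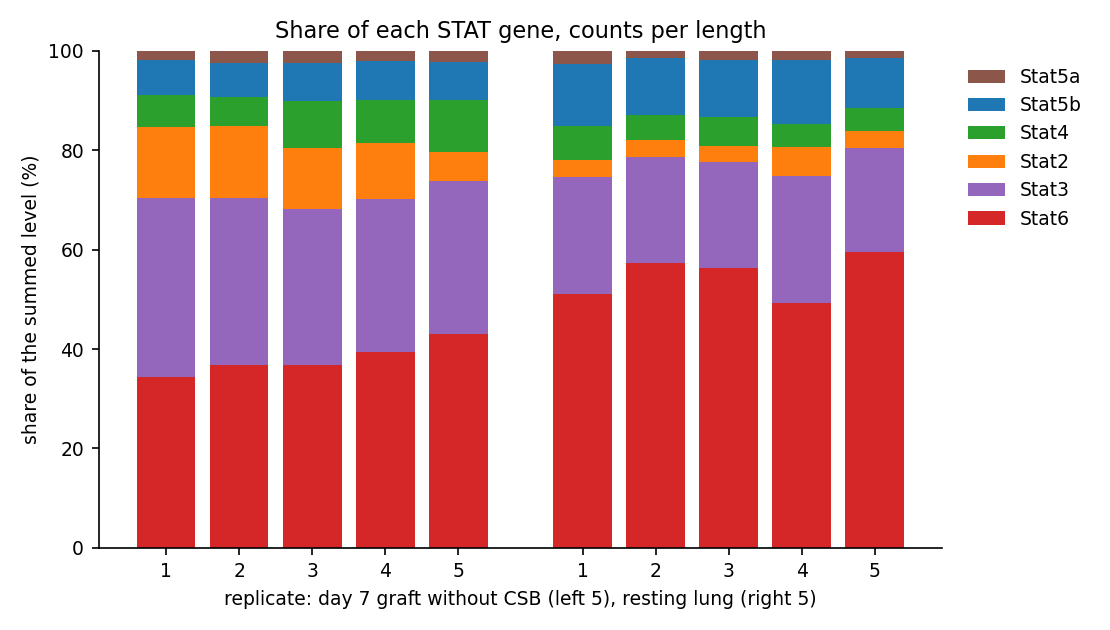
Share of each STAT gene in the summed level of the 6 genes, from counts per exon length, in each library. Day 7 grafts stand left of resting lung, with 1 bar per replicate. The Stat6 share averages 38.1% at day 7 and 54.7% in resting lung, and the Stat2 share 11.6% at day 7 and 3.83% in resting lung.

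Of the 4 Janus kinases, which activate STATs, 3 were higher, beside 23.3% of all tested genes. Jak2, which serves the IL-3, IL-5, GM-CSF and IL-12 receptors, measured between 161 and 243 CPM at day 7 and between 47.7 and 72.2 CPM in resting lung (log2 fold change 1.66 ± 0.15, edgeR adjusted p = 8.83e-07). Jak3, the partner of the common gamma chain, and Tyk2, a kinase of the type I interferon and IL-12 receptors, had log2 fold changes of 1.03 ± 0.20 and 0.56 ± 0.13. Jak1 averaged 574 ± 58.1 CPM at day 7 and 636 ± 66.3 CPM in resting lung and was not called (log2 fold change -0.15, edgeR adjusted p = 0.341), and it was called lower with library totals alone, at -0.33. With Irf9, 4 of the 5 genes of this list were higher.

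Of 17 negative regulators of STAT signalling, 4 were higher, 3 lower and 10 not called, with a median log2 fold change of 0.10. These calls stand beside 23.3% higher and 23.4% lower over all tested genes. Beside Socs1, Usp18, which blocks the type I interferon receptor, averaged 70.6 ± 16.3 CPM at day 7 and 17.8 ± 4.07 CPM in resting lung (log2 fold change 1.99), and Ptpn2, a phosphatase of Janus kinases and STATs, rose by 0.80 on the log2 scale. Socs5 fell by 1.68 on the log2 scale. Ptpn6, the phosphatase SHP-1, averaged 603 ± 39.6 CPM at day 7 and 552 ± 75.7 CPM in resting lung and was not called, and Ptpn1 was not called either.

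Of 23 genes for ligands, 7 had too few counts to test, among them the gene for IL-5. In the other 16, 10 were higher, 1 lower and 5 not called, with a median log2 fold change of 1.31. The shares over all tested genes were 23.3% higher and 23.4% lower. Beside Ifng and Il10, Il27 averaged 13.3 ± 4.54 CPM at day 7 and 1.81 ± 0.709 CPM in resting lung (log2 fold change 2.87). Il23a, a subunit of IL-23, measured 353, 135, 12.7, 8.30 and 13.3 CPM in the day 7 libraries and between 1.93 and 4.87 CPM in resting lung (log2 fold change 4.93 ± 1.06, edgeR adjusted p = 0.00198). Its highest values came from day 7 replicates 1 and 2, and without replicate 1 its log2 fold change was 3.64. Il4 averaged 156 ± 80.3 CPM at day 7 and 99.5 ± 33.4 CPM in resting lung and was not called (log2 fold change 0.65), and was called without day 7 replicate 2 at 0.86.

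**Figure D5:**
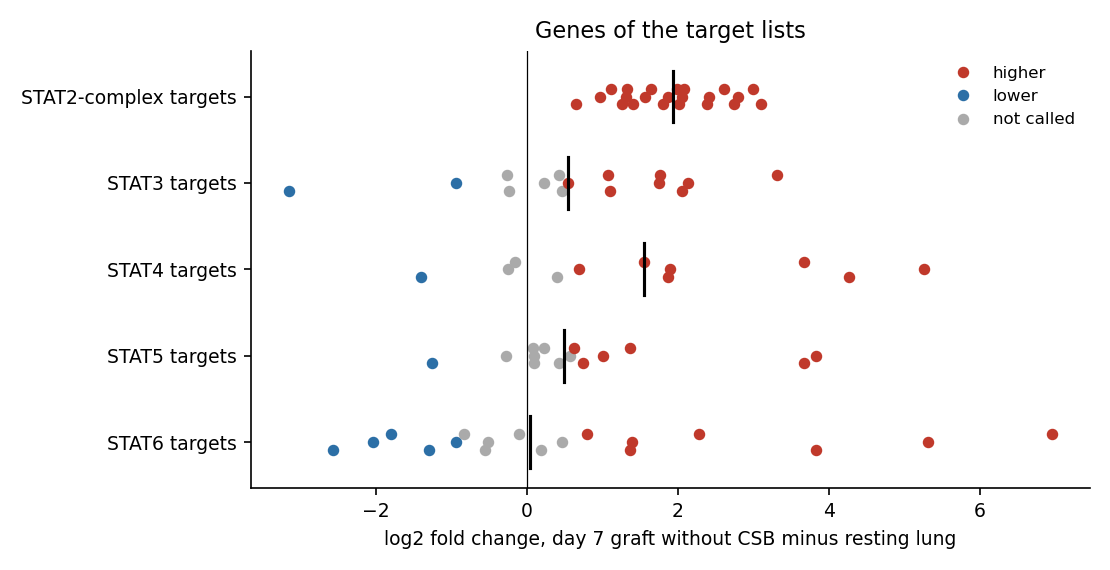
Log2 fold change, day 7 graft without CSB minus resting lung, of every tested gene in the 5 target lists. Each point is 1 gene, coloured by its call, and the black tick is the list median. The 22 genes of the STAT2 complex are all higher with a median of 1.93, beside 23.3% higher over all tested genes. The STAT6 list spreads to both sides with a median of 0.04. All lists were chosen with earlier results of these data known.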

How the data were processed

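Libraries of sorted eosinophils were made from Trizol RNA with the NEBNext Ultra II kit, per the labels' protocols. The submitters' processing notes name bcl2fastq 2.17, Trimmomatic 0.36, STAR 2.5.2b, featureCounts, Subread 1.5.2 and mm10. No label states the strand setting, the treatment of multiple matches or the annotation. The authors deposited unnormalized counts for each gene. Symbols for 49056 of 49315 identifiers and coordinates came from GENCODE M21, promoters from RefSeq (GRCm38.p6, all 6 genes matched). A further 10 columns of values tied to no label were not used.

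Differences were fitted with edgeR 4.0.16 in R 4.3.3 (filterByExpr, TMM, quasi-likelihood F test with robust dispersion, group as the only term), adjusted by Benjamini-Hochberg over 16500 genes. CPM of single genes use TMM-scaled totals and list sums use library totals. A floor of 3 counts equals 0.112 to 0.191 CPM at day 7 and 0.233 to 0.450 CPM in resting lung, counting error only. Ratios within a library were tested by exact permutation in scipy 1.17.1. No replicate pair agreed within sampling noise (chi-square per degree of freedom 6.58 or more).

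The members and the 26 gene lists were chosen with earlier results of these data known. Named genes are, per pathway list, up to 4 called genes of largest change and up to 3 uncalled of highest CPM. Short lists name all members, marker lists the genes of highest CPM, and each STAT gene its 3 nearest profiles. Not all of them are reported here. Siglecf, Epx and Gm28177 were added after values were seen, and Prg2, Prg3, Ear1, Ear2 and Ear6 were also named outside these rules. Alternatives were other scalings, filters, DESeq2 1.42.0, thinning to 6666577 counts, a replicate block and leaving out each library.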

Additional observations from a re-analysis of the deposited data

Results flagged for a closer look

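Among 64 groups of 5 libraries tested for a library far from the others (gap over range above 0.71), 5 had one, and chance alone gives about 1 in 20. Day 7 replicate 1 had 962.4 CPM of Stat3, against 704.2 to 771.4 CPM in the other day 7 libraries. Resting replicate 4 had 64.23 CPM of Stat2, against 37.09 to 44.38 CPM in the other resting libraries. Resting replicate 1 had 36.24 CPM of Stat5a, against 23.07 to 26.04 CPM in the other resting libraries. Day 7 replicate 5 had a sum of 6716 CPM over the STAT6 targets, against 2674 to 3685 CPM in the other day 7 libraries, and 4345 CPM of Retnla. The same library had a sum of 306.1 CPM over dendritic cell markers, against 214.7 to 237.9 CPM in the others.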

How the results depend on the processing

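Under 18 other settings Stat2, Stat3, Stat4 and Stat5a kept their calls, with log2 fold changes of 1.75 to 2.14, 0.68 to 0.99, 0.75 to 1.05 and 0.40 to 0.73. Stat5b lost its call at -0.19 with no filter on low counts, at -0.31 with the replicate block and in 4 of 10 settings without 1 library, over which it ranged from -0.33 to -0.25. Stat6 was called lower at -0.37 with library totals alone. Genes called higher numbered 2495 with library totals alone, and genes called lower 6715 with no filter, whose log2 fold changes moved by a median of 0.12. The causes were not tested.

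Same-numbered libraries of the groups share only a number: correlations of their deviations were 0.12, 0.000484, -0.114, -0.188 and 0.089. No library correlated best with the library of its own number. With the replicate block 3317 genes were higher and 3636 lower, and 0 of the 15 pairs of STAT genes passed, since 5 pairs allow no p below 0.0625. Stat3 over Stat4 changed sign to 0.02 after thinning, and ranged from -0.16 to 0.0755 without 1 library. Among uncalled genes, Cish (-0.0872) and Ptpn6 (-0.0622) turned negative with library totals alone and Il6ra (0.0349) positive with no filter. Without 1 library, log2 fold changes ranged from -0.0182 to 0.18 for Cish, -0.0374 to 0.44 for Socs3, -0.17 to 0.41 for Alox15, -0.24 to 0.13 for Il6ra and -0.43 to 0.0123 for Il5ra. With no filter Il4ra (0.58) and Ifnar1 (0.46) were also called higher, and with library totals alone Arpc1a, Baz2a and Prr14 were called lower (-0.34, -0.39 and -0.37). A requirement of 10 counts in every library removed Il10, Ifng, Ccl11, Lepr, Il12rb1 and Il27 from the test. Ccl11 was also untested after thinning and without day 7 replicate 4.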

Other observations

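Dendritic cell markers summed to 215 to 306 CPM at day 7 and 173 to 256 CPM in resting lung (5 of 9 higher, 1 lower), B and plasma cell markers to 425 to 739 CPM at day 7 and 657 to 1002 CPM in resting lung (1 of 8 higher, 5 lower), and alveolar macrophage markers to 558 to 1283 CPM at day 7 and 1370 to 2241 CPM in resting lung (1 of 9 higher, 6 lower). Stromal markers summed to 119 to 594 CPM at day 7 and 460 to 627 CPM in resting lung (1 of 8 higher, 4 lower), and mast cell and basophil markers to 41.7 to 210 CPM at day 7 and 208 to 294 CPM in resting lung (1 of 6 higher, 1 lower). The part of these cells in the STAT values was not tested.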
